A study of Mus musculus with 15 samples.

Results

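The genes described here are 9 mouse genes of the red cell lineage, chosen by symbol: the adult globin genes Hba-a1, Hba-a2, Hbb-bs and Hbb-bt, and Alas2, Slc4a1, Car1, Klf1 and Ahsp. Of the 26688 genes in the deposited count table, 8 of the 9 had a row under these symbols, and Ahsp was not analysed here. They were followed in messenger RNA of forelimb joint tissue as a sign of blood or marrow in that tissue. All 8 passed the filter on low counts, which left 15770 genes tested.

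All 15 libraries came from wild-type male DBA/1 mice, given as 8 weeks old, with 5 libraries in each of 3 groups. The healthy mice were never immunized and had no treatment. The CIA mice had collagen-induced arthritis, an autoimmune joint disease, raised with bovine type II collagen in Freund's adjuvant and a booster, and entered the study at an arthritis index above 5. The CIA+F20 mice had the same immunizations and the same entry index, and were given F20, a compound known here only by its code, at 10 mg/kg by mouth once a day for 21 days. Whether the CIA mice received the vehicle is not stated in the sources used here. Both forelimbs were taken from the elbow down, so the forearm, wrist and paw were included, and most skin and muscle were removed before a rinse in saline and freezing. The protocol names no removal of bone, and no step against blood or marrow other than the rinse. The labels leave it unsaid whether every library has its own mouse, and p-values here therefore describe the variation among libraries, which may be technical.

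Red cells are made in the marrow, where precursors switch on globin, heme and membrane genes as they mature. Young red cells keep globin messenger RNA after they enter the blood, while transcription factors such as Klf1 belong to nucleated precursors. Blood and marrow in a tissue sample both bring globin reads with them. In bulk tissue, more erythroid cells and more RNA per cell cannot be told apart.

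The libraries held 18627303 to 34247317 counted reads, the lowest in healthy 4 and the highest in healthy 5. The 8 genes took 0.00687 to 0.0900% of these reads in healthy libraries, 0.0255 to 0.331% in CIA and 0.0479 to 0.132% in CIA+F20. Healthy 4 also stood apart in its T cell markers, whose summed level was 76.1 CPM against at most 1.92 in the other healthy libraries. CPM is a gene's read count scaled to a library of 1000000 reads, after TMM adjustment of library sizes for composition.

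The adult alpha-globin copies Hba-a1 and Hba-a2 and the beta-globin copies Hbb-bs and Hbb-bt are shown first, because their near-identity limits how reads are shared between copies. In the GENCODE M39 canonical transcripts on GRCm39, the alpha pair differed at 1 of 429 coding bases, C381T, counted from the start codon of Hba-a1. The beta pair differed at 1 of 444 coding bases, C417T, counted from the start codon of Hbb-bs. The stretches around these bases lie in exon 3 of each gene. They read as follows, with the differing base in capitals. The alpha stretches are coding bases 351 to 411 on the plus strand, and the beta stretches are coding bases 387 to 444 on the minus strand.
Hba-a1, chr11:32234313-32234373: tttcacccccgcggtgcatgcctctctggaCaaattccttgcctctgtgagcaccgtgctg
Hba-a2, chr11:32247130-32247190: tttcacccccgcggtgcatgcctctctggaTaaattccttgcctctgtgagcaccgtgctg
Hbb-bs, chr7:103475872-103475929: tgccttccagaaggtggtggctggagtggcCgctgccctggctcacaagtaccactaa
Hbb-bt, chr7:103461863-103461920: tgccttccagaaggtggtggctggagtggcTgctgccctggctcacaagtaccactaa

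After the stop codon the pairs part ways. The 3′ untranslated stretches of the alpha copies had 0 mismatches and differed in annotated length, 113 bases in Hba-a1 and 90 in Hba-a2. Those of the beta copies had 36 mismatches and were 70.4% identical over 135 aligned positions. A read from the alpha pair therefore carries fewer bases that tell the copies apart than a read from the beta pair. GRCm39 is the sequence of C57BL/6J, and inbred strains are known to differ at the beta-globin locus. The DBA/1 alleles were not analysed here, and the treatment of reads with several matches is not given in the sources used here, so the split within each pair is uncertain.

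The region upstream of the start sites was read from the RefSeq promoter table on GRCm38.p6, which had entries for 6 of the 8 genes. Of these stretches 5 are shown, the last 130 bases before the annotated start. A link between their motifs and the levels across libraries was not tested. Capitals mark 3 motifs searched on both strands: GATAA, the core that GATA1 binds; CCNCNCCC, the core that KLF1 binds; and CCAAT.
Hba-a1, chr11:32283542-32283671, plus strand: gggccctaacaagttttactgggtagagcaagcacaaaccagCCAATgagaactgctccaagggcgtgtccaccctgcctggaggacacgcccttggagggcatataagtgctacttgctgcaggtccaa
Hbb-bs, chr7:103827929-103828058, minus strand: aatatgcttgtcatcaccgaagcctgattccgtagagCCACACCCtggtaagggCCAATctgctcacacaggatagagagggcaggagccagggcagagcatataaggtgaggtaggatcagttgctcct
Hbb-bt, chr7:103813924-103814053, minus strand: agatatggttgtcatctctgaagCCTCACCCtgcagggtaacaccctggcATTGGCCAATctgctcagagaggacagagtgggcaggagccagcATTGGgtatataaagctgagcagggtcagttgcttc
Alas2, chrX:150547287-150547416, plus strand: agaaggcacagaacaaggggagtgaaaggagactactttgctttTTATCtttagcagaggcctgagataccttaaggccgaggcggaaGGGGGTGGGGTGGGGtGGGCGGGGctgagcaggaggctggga
Klf1, chr8:84901852-84901981, plus strand: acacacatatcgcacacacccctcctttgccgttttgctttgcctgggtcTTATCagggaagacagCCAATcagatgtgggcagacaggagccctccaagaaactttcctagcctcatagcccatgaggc

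Over the whole 250 bases upstream, each of the 6 genes held 1 GATAA, which 22.6% of all 32851 promoter windows hold at least once. CCNCNCCC occurred once in Hbb-bs, once in Hbb-bt and 4 times, in part overlapping, in Alas2, against 45.9% of all windows. CCAAT occurred in each of the 6 but Alas2, with 3 in Hbb-bt, against 33.8% of all windows. The Hba-a1 and Hba-a2 windows had 0 mismatches over the 247 positions they share, while those of Hbb-bs and Hbb-bt had 65 mismatches over 243. A match is a description of letters, not of binding.

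Alpha-globin led the group. Hba-a1 (ENSMUSG00000069919, chromosome 11, 32233511 to 32234465, plus strand, GRCm39) encodes the alpha chain of adult hemoglobin. In healthy libraries 1 to 5 it stood at 109, 172, 461, 33.2 and 100.2 CPM. In CIA libraries 1 to 5 it stood at 733, 373, 129.9, 1239.9 and 517 CPM, and in CIA+F20 libraries 1 to 5 at 247, 663, 353, 260.4 and 569.9 CPM. Healthy 3 was above CIA 2 and CIA 3, so the groups overlapped, and CIA 4 was far above all others. Group means were 175 ± 167 CPM for healthy libraries, 598 ± 420.3 for CIA libraries and 419 ± 188 for those given F20 (SD, n = 5 per group). Hba-a1 rose in CIA over healthy by a log2 fold change of 1.77 ± 0.64 (SE), with an edgeR adjusted p of 0.0341.

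Hba-a2 (ENSMUSG00000069917, chromosome 11, 32246489 to 32247298, plus strand) encodes the other alpha chain copy. It was counted at 0.0410, 4.56, 3.34, 0 and 2.81 CPM in healthy 1 to 5. The CIA libraries had 9.12, 4.19, 0.845, 17.7 and 9.89 CPM, and the CIA+F20 libraries had 4.42, 8.26, 0.141, 3.96 and 0.784 CPM. It was near 0 in single libraries of different groups, and the groups overlapped widely. Its log2 fold change in CIA over healthy was 1.92 ± 1.04, with an edgeR adjusted p of 0.142, which missed the threshold.

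The beta chain genes had the same highest and lowest library in each group as Hba-a1. Hbb-bs (ENSMUSG00000052305, chromosome 7, 103475741 to 103477303, minus strand) had 70.2, 117, 333, 30.6 and 76.6 CPM in healthy 1 to 5. It had 456, 299, 76.2, 982 and 420.2 CPM in CIA, and 200.4, 533, 202, 220.1 and 421 CPM in CIA+F20. Again healthy 3 exceeded CIA 2 and CIA 3. It also lay above CIA+F20 1, 3 and 4, while the other 4 healthy libraries lay below all 5 of CIA+F20. Hbb-bs rose in CIA by 1.83 ± 0.64 on the log2 scale, with an edgeR adjusted p of 0.0312.

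Hbb-bt (ENSMUSG00000073940, chromosome 7, 103461731 to 103463203, minus strand) was lower but moved alike. It had 13.2, 23.9, 69.6, 4.07 and 13.7 CPM in healthy 1 to 5, then 92.8, 66.1, 11.8, 198 and 85.0 CPM in CIA, and 35.9, 115, 43.7, 40.3 and 91.6 CPM in CIA+F20. CIA 3 lay within the healthy range and healthy 3 within the CIA range. Hbb-bt rose in CIA by 1.86 ± 0.71 on the log2 scale, with an edgeR adjusted p of 0.0437.

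Alas2 (ENSMUSG00000025270, chromosome X, 149330371 to 149353634, plus strand) encodes the erythroid form of the first enzyme of heme synthesis. It had 3.36, 6.37, 22.8, 2.73 and 6.06 CPM in healthy 1 to 5. It had 34.3, 23.7, 5.11, 81.9 and 32.5 CPM in CIA, and 14.7, 37.4, 13.0, 12.9 and 32.1 CPM in CIA+F20. Healthy 3 was more than 3 times the next healthy library and below 4 of the 5 CIA libraries. Alas2 rose in CIA by 2.09 ± 0.67 on the log2 scale, with an edgeR adjusted p of 0.0201.

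Slc4a1 (ENSMUSG00000006574, chromosome 11, 102239650 to 102257029, minus strand) encodes band 3, the chloride and bicarbonate exchanger of the red cell membrane. It had 4.18, 7.32, 37.9, 1.57 and 5.53 CPM in healthy 1 to 5. It had 79.5, 50.7, 8.79, 168 and 49.0 CPM in CIA, and 19.6, 59.7, 19.2, 11.5 and 59.1 CPM in CIA+F20. In CIA all libraries but CIA 3 exceeded every healthy library. Its rise in CIA, 2.64 ± 0.84 on the log2 scale, was the largest point estimate of the 8 genes, with an edgeR adjusted p of 0.0193.

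Car1 (ENSMUSG00000027556, chromosome 3, 14831276 to 14873428, minus strand) encodes carbonic anhydrase 1, a red cell enzyme that hydrates carbon dioxide. It had 2.25, 2.48, 8.95, 1.74 and 2.35 CPM in healthy 1 to 5. It had 13.3, 8.03, 2.46, 39.9 and 12.7 CPM in CIA, and 5.75, 12.5, 6.72, 4.00 and 13.1 CPM in CIA+F20. CIA 3 again fell among the healthy libraries. Car1 rose in CIA by 2.09 ± 0.64 on the log2 scale, with an edgeR adjusted p of 0.0160.

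Klf1 (ENSMUSG00000054191, chromosome 8, 85628557 to 85631924, plus strand) encodes the erythroid transcription factor that switches on adult beta-globin, and it marks nucleated precursors. It had 0.697, 0.987, 4.42, 0.349 and 0.894 CPM in healthy 1 to 5. It had 5.99, 3.90, 0.806, 15.2 and 4.43 CPM in CIA, and 1.33, 4.62, 2.19, 1.43 and 6.37 CPM in CIA+F20. Klf1 was thus detected in all 15 libraries, from 6 reads in healthy 4 to 411 in CIA 4. It rose in CIA by 2.02 ± 0.75 on the log2 scale, with an edgeR adjusted p of 0.0400.

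**Figure D1:**
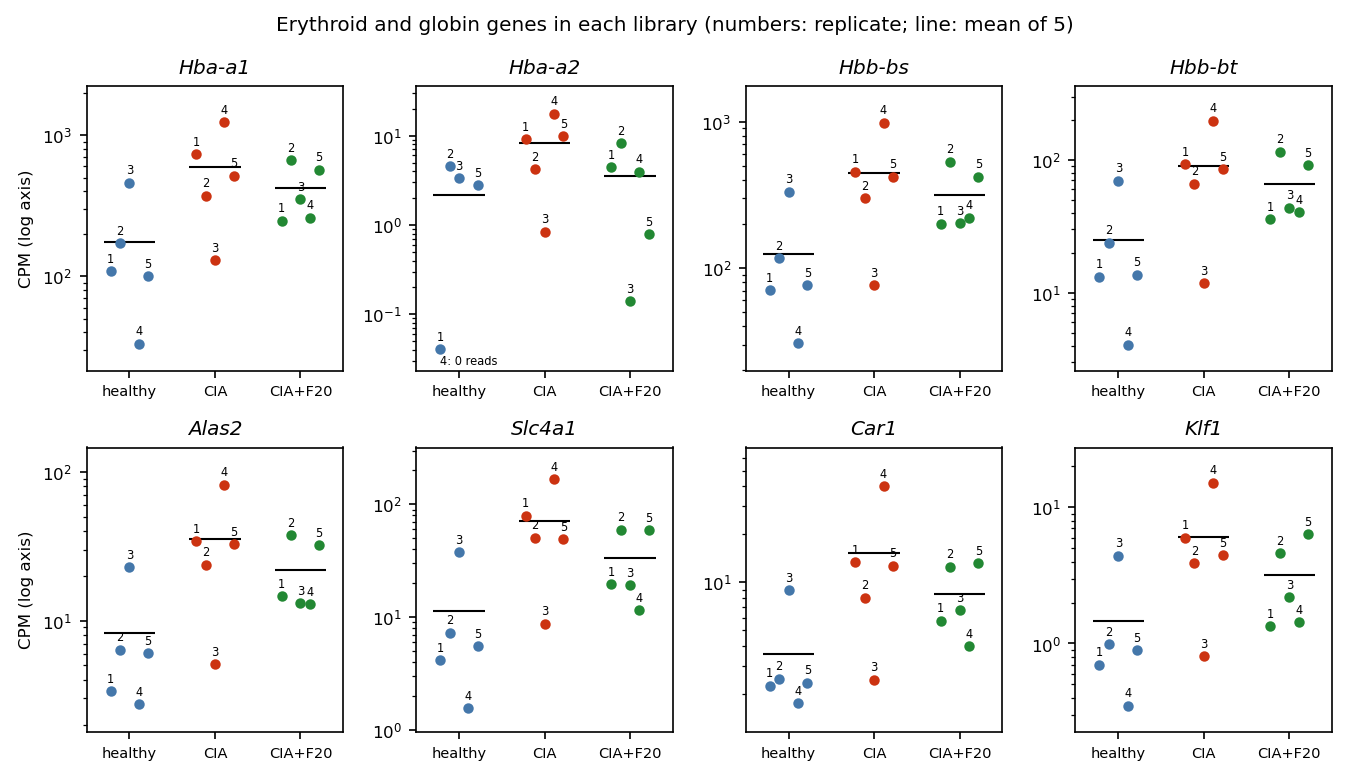
Level of each of the 8 genes in each library, in CPM on a log axis that differs between panels, by group; each point is a library with its replicate number, and the line is the mean of 5. Healthy 4 is lowest and CIA 4 highest in all 8 panels, and Hba-a2 has no point for healthy 4, which had 0 reads.

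Per kilobase of transcript, the order of mean levels in CIA was Hba-a1 at 811 ± 569.5 CPM per kb, Hbb-bs at 673 ± 503, Hbb-bt at 129 ± 96.2, Alas2 at 17.4 ± 13.9, Slc4a1 at 15.7 ± 13.2, Hba-a2 at 12.9 ± 9.89, Car1 at 12.9 ± 12.1 and Klf1 at 3.93 ± 3.53 (SD, n = 5). Neighbours in this order differed by less than the larger of their SDs, except for Hbb-bs against Hbb-bt and Hbb-bt against Alas2. The 4 globin genes together made up 88.9 to 94.9% of the reads of the 8 genes. In healthy libraries Hba-a1 had 237 ± 227 CPM per kb and Klf1 0.952 ± 1.08.

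Taking CIA against healthy as a whole, 7 of the 8 genes rose and none fell, all but Hba-a2. Among all tested genes, 26.0% rose and 19.5% fell at the same threshold, 45.5% in either direction. At an unadjusted p under 0.05 there were 7 of the 8 and 53.5% of all tested genes. With library size alone as scaling, 7370 genes rose and 1353 fell in place of 4094 and 3081, and 7 of the 8 again rose. All 8 point estimates were above 0 and at least 2-fold, against 55.0% and 13.5% of all tested genes. The median log2 fold change of the 8 was 1.97, beside 0.07 over all tested genes. No gene of the 8 had groups that did not overlap. Of all tested genes, 24.3% had such groups, 11.7% with CIA higher and 12.5% with CIA lower. The extreme libraries were nearly the same from gene to gene, so the 8 genes do not count as separate observations. Healthy 3 was the highest healthy library for 7 genes, healthy 4 the lowest for 8, CIA 4 the highest CIA library for 8 and CIA 3 the lowest for 8.

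**Figure D2:**
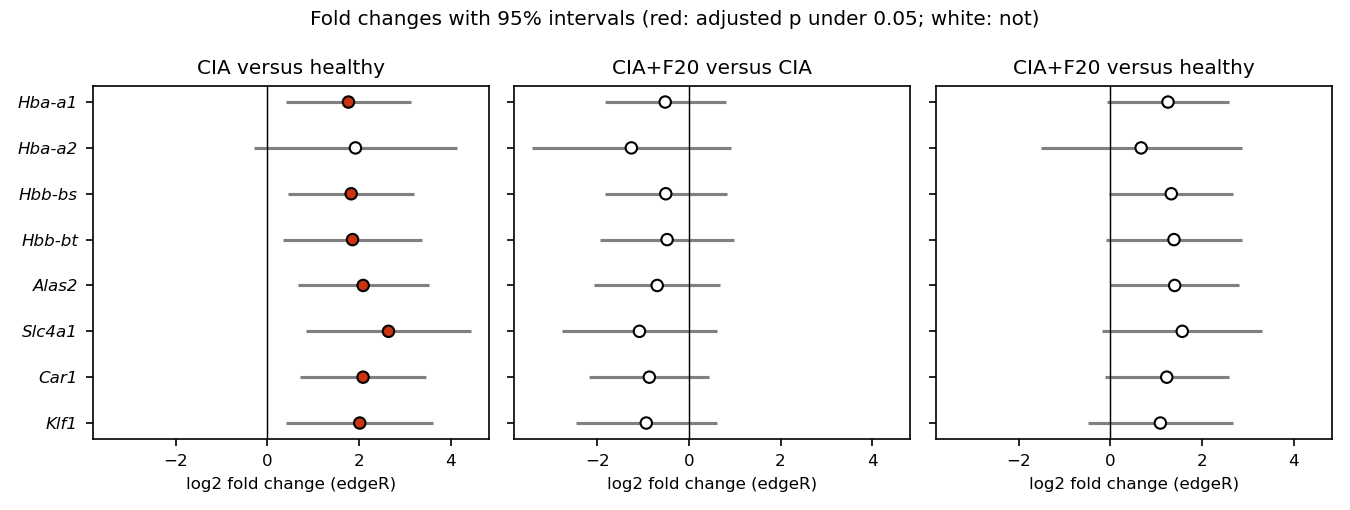
Log2 fold change of each of the 8 genes in the 3 comparisons, from edgeR, with 95% intervals; red points passed an adjusted p of 0.05. The 7 red points are in CIA versus healthy, and the intervals of all 8 genes include 0 in the other comparisons.

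The count of 7 depended on which libraries were in the fit. Without CIA 4, 0 of the 8 passed, with log2 fold changes from 1.32 for Hbb-bs to 2.04 for Slc4a1 and edgeR adjusted p from 0.0581 to 0.291. Without healthy 3, 7 passed, and the log2 fold change of Slc4a1 was 3.91. Leaving out healthy 1, 2, 4 or 5 left 3 genes past the threshold in each case, and leaving out CIA 1 left 4. With only the healthy and CIA libraries in the fit, 3 passed. With the replicate number as a block, 0 passed (edgeR adjusted p 0.0540 to 0.353). The sign stayed positive for all 8 genes under each of these settings, and DESeq2 called the same number, 7.

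**Figure D3:**
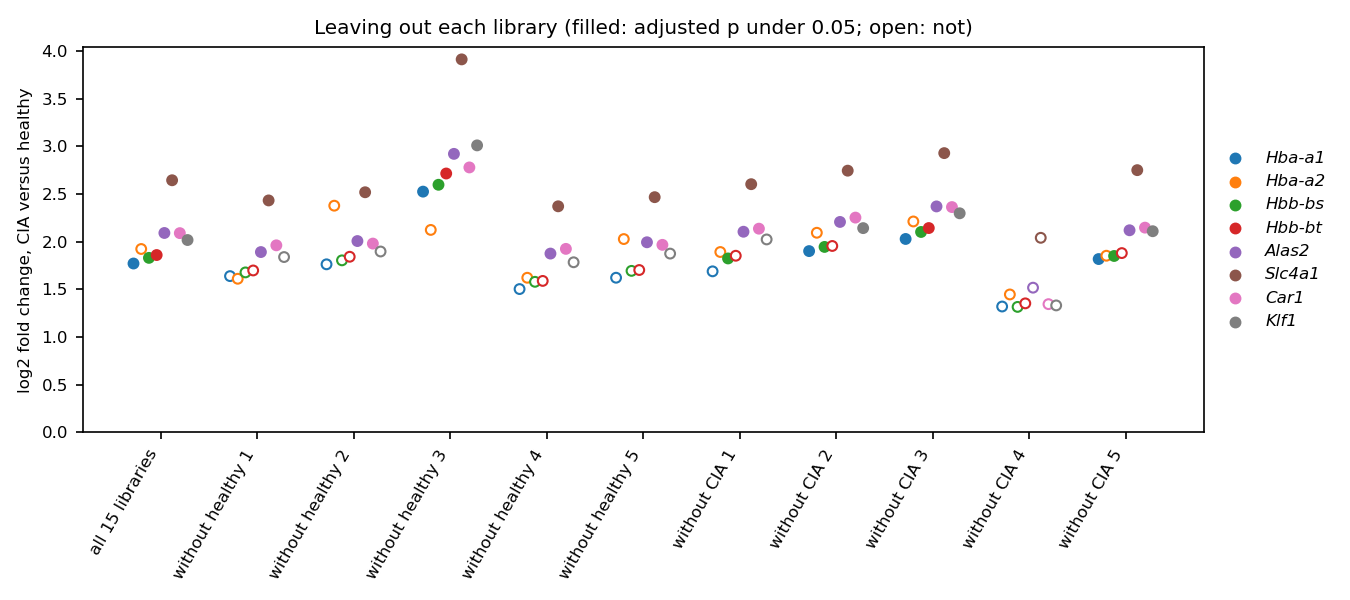
Log2 fold change of the 8 genes in CIA versus healthy (vertical axis) with all 15 libraries and with each healthy or CIA library left out in turn; filled points passed an edgeR adjusted p of 0.05. Values are lowest without CIA 4, where no point is filled, and highest for 7 genes without healthy 3.

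Under F20 none of the 8 genes passed the test against CIA, at edgeR adjusted p from 0.291 to 0.614. None had an unadjusted p under 0.05, which 44.0% of all tested genes had, and DESeq2 called none. The groups overlapped for all 8, while 13.6% of all tested genes had groups that did not, 8.28% with CIA+F20 higher and 5.32% lower. Of all tested genes, 29.6% were called in this comparison, 14.1% higher and 15.5% lower. All 8 point estimates were below 0, where 45.1% of all tested genes were above 0 and 3.06% at least 2-fold higher, with a median of -0.77 beside -0.06 over all tested genes. Hba-a1 differed by -0.51 on the log2 scale (95% interval -1.84 to 0.81), Hbb-bs by -0.50 (-1.84 to 0.83) and Slc4a1 by -1.08 (-2.77 to 0.62). These intervals reach from falls of more than 1 log2 unit to rises. Most of the 8 genes moved together across libraries, so their shared sign is not that of separate observations. Without CIA 4 all 8 estimates moved up, to 0.012 for Hbb-bs and 0.032 for Hbb-bt, both above 0. The others were then at -0.06 for Hba-a1, -0.12 for Alas2 and for Car1, -0.24 for Klf1, -0.47 for Slc4a1 and -0.78 for Hba-a2.

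Against healthy, the CIA+F20 libraries were not told apart either. The 8 log2 fold changes ran from 0.67 for Hba-a2 to 1.57 for Slc4a1, at edgeR adjusted p from 0.569 to 0.940, and none had an unadjusted p under 0.05. This comparison called 0 genes of all tested by edgeR, with 8.80% at an unadjusted p under 0.05, and DESeq2 called 116. All 8 estimates were above 0, against 51.9% of all tested genes, and 7 of the 8 were at least 2-fold, against 4.55%. Most of the 8 moved together across libraries, so they do not count as separate observations. The interval of Alas2 came nearest to leaving out 0, from -0.0047 to 2.81 around 1.40. For the 7 genes other than Hba-a2, the 4 healthy libraries other than healthy 3 lay below all 5 CIA+F20 libraries. Healthy 3 was left out here after it was seen to be the highest healthy library for these 7 genes. The share of all tested genes with such a split was not computed. With healthy 3 included the groups overlapped for all 8, and 3.25% of all tested genes had groups that did not, 1.98% with CIA+F20 higher and 1.27% lower. Without healthy 3 the estimates of these 7 genes ran from 1.92 to 2.84, and 0 passed (edgeR adjusted p 0.129 to 0.284). This comparison shares its libraries with both others, so the 3 sets of values are not independent.

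The spread within a group also differed. The highest library was 13.9 times the lowest for Hba-a1 in healthy, 9.54 times in CIA and 2.68 times in CIA+F20. For Klf1 these ratios were 12.7, 18.9 and 4.78, and for Slc4a1 24.2, 19.1 and 5.18. The difference in spread between groups was not tested.

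Ratios within a library do not depend on library size. Alpha reads per beta read ran from 0.958 in healthy 4 to 1.49 in CIA 3, with overlapping groups. Hbb-bt made up 11.7 to 18.1% of beta reads across the 15 libraries. Hba-a2 made up at most 2.73% of alpha reads, in healthy 5.

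The share of Hba-a2 was not graded evenly over libraries. It was 0.0375% of 2664 alpha reads in healthy 1 (exact 95% interval 0.00095 to 0.209%) and 0.0400% of 9992 in CIA+F20 3 (0.0109 to 0.102%). It was 0.137% of 16744 in CIA+F20 5 (0.0871 to 0.206%). In healthy 4 it was 0 of 572, with an exact upper limit of 0.643%, while the limit of 3 reads that a count of 0 allows is 0.524%. In the other 11 libraries it lay between 0.646 and 2.73%, beyond the counting intervals of healthy 1, CIA+F20 3 and CIA+F20 5. These intervals cover counting error only. Low shares occurred in healthy and in CIA+F20 libraries and in no CIA library, where the lowest was 0.646% in CIA 3.

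Reads of the 4 genes outside the globins were set against globin reads of the same library. Per 1000 globin reads there were 54.0 to 94.1 such reads in healthy libraries, 78.4 to 125 in CIA and 56.9 to 102 in CIA+F20. Means were 72.9 ± 18.2 in healthy and 103.8 ± 18.2 in CIA. For Slc4a1 alone the means were 28.0 ± 9.17 and 57.3 ± 12.9, and no test was made of these ratios. It had 21.7, 23.0, 43.7, 23.1 and 28.6 reads per 1000 globin reads in healthy 1 to 5, and 61.6, 68.3, 40.2, 69.1 and 47.5 in CIA. Healthy 3 exceeded CIA 3, and otherwise CIA was above healthy. In CIA+F20 it ranged from 21.9 to 54.5. Klf1, in contrast, overlapped throughout, with 3.11 to 5.13 reads per 1000 globin reads in healthy, 3.69 to 6.24 in CIA and 2.72 to 5.88 in CIA+F20. Alas2 ran from 17.4 to 40.2 in healthy and from 23.3 to 33.6 in CIA.

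**Figure D4:**
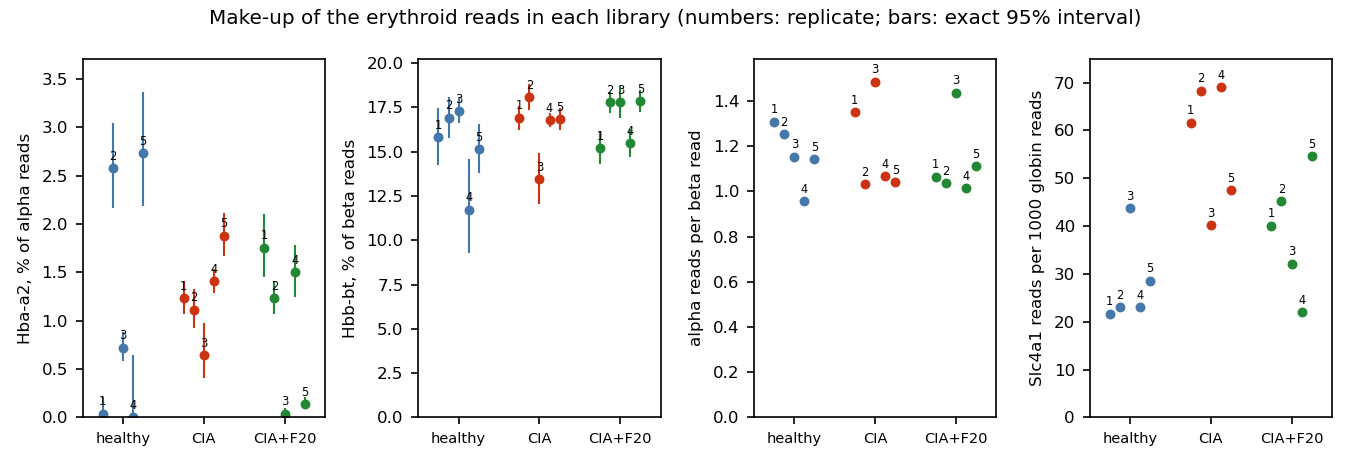
Make-up of the erythroid reads in each library by group: Hba-a2 as percent of alpha reads, Hbb-bt as percent of beta reads, alpha reads per beta read, and Slc4a1 reads per 1000 globin reads; numbers are replicates and bars, in the first 2 panels, exact 95% counting intervals. Hba-a2 is near 0 in healthy 1, healthy 4, CIA+F20 3 and CIA+F20 5, and Slc4a1 is above 40 per 1000 in all 5 CIA libraries.

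The rest of the red cell programme was read from fixed lists. Their counts in CIA are to be read beside the 26.0% of all tested genes that rose and the 19.5% that fell. Of 14 erythroid transcription factors and cofactors, 11 rose in CIA and none fell, with a median log2 fold change of 1.96. Nfe2, a factor of erythroid and megakaryocytic cells, rose by 2.94 ± 0.68 (edgeR adjusted p 0.00337). Bcl11a, a repressor of embryonic and fetal globin genes, rose by 2.87 ± 0.63 (0.00255), E2f2, an E2F factor of the cell cycle, by 2.56 ± 0.57 (0.00269), and Mxd1, an antagonist of Myc, by 2.21 ± 0.40 (edgeR adjusted p 0.000876). Several of these also act in white cells. Gata1, the master factor of the lineage, was named after its value was seen and rose by 2.27. Without CIA 4, 11 of the 14 rose.

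Of 19 erythroid membrane and cytoskeleton genes other than Slc4a1, 9 rose and 3 fell, with a median of 1.27. Rhag, the Rh-associated glycoprotein, rose by 2.49 ± 0.80 on the log2 scale (edgeR adjusted p 0.0203). Ank1 fell by 1.04 (edgeR adjusted p 0.00453), from 236 ± 21.6 CPM in healthy to 115 ± 55.6 in CIA, and Bsg fell by 0.49 (0.0112). Ank1 and Bsg are also expressed in muscle, and in healthy libraries Bsg stood at 555 ± 53.1 CPM where Rhag stood at 1.24 ± 1.62. The count depended on CIA 4 and healthy 4: without CIA 4, 0 rose and 3 fell, and without healthy 4, 3 rose and 3 fell.

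Of 20 genes of red cell enzymes and maturation, 14 rose and 3 fell, with a median of 1.21. Ube2l6 rose by 1.52 ± 0.34, Isg20 by 1.84 ± 0.41, Mkrn1 by 1.08 ± 0.26 and Bnip3l, the mitophagy receptor that clears mitochondria from reticulocytes, by 0.33 ± 0.08, with edgeR adjusted p of 0.00271, 0.00274, 0.00386 and 0.00348. Ube2l6 and Isg20 are also interferon-responsive genes. Without CIA 4, 9 rose and 3 fell.

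Heme synthesis and iron intake did not move as a block. Of 8 heme synthesis genes other than Alas2, 1 rose and 4 fell, beside 26.0% and 19.5% of all tested genes. Alas1, the housekeeping counterpart of Alas2, fell by 1.20 on the log2 scale (edgeR adjusted p 0.00044), from 213 ± 33.6 to 92.9 ± 28.1 CPM, and was higher under F20 than in CIA by 0.94 on the log2 scale (edgeR adjusted p 0.00485). Uros fell by 0.35 (0.00299) and Urod by 0.23 (edgeR adjusted p 0.0403), and Ppox rose by 0.45 (0.0123). With library size alone as scaling, which moved the median of all genes by 0.31 log2 units in this comparison, Urod was at 0.07, above 0, and 3 of the 8 rose and 1 fell.

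Of 12 tested genes of erythropoietin signalling and iron intake, 4 rose and 3 fell, beside 26.0% and 19.5% of all tested genes. Erfe, the hormone erythroferrone, which erythroblasts release and muscle also expresses, fell by 2.98 (edgeR adjusted p 0.000169), and Tfrc, the transferrin receptor, fell by 1.11 (0.0025). Slc25a37, the mitochondrial iron importer mitoferrin, rose by 1.15 ± 0.27 (edgeR adjusted p 0.0039) and Tfr2, another transferrin receptor, rose by 1.99 ± 0.50 (0.0057). Epo was under the filter on low counts and was not tested. It was at 0 in every healthy and every CIA+F20 library. In CIA it had reads in CIA 5, while 1 of the 13 listed genes was at 0 in each of CIA 1 to 4. Other globin genes were scarce: Hbb-bh1 and Hbb-bh2, embryonic beta-type genes, were at 0 in all CIA and CIA+F20 libraries. In healthy 2 all 4 of the other globin genes with a row, these included, had reads, at a summed 0.238 CPM. Hbq1b, a theta globin, had a log2 fold change of 2.12 ± 0.84 in CIA that missed the threshold (edgeR adjusted p 0.0515). Myoglobin (Mb), the oxygen store of muscle, fell by 1.22 (edgeR adjusted p 0.000865).

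In the same lists some genes were called in CIA+F20 against CIA, where 29.6% of all tested genes were called. In the membrane list Ank1 was higher by 0.80 (edgeR adjusted p 0.0302) and none was lower. Among the transcription factors Mxd1 was lower by a log2 change of -1.14 and Ldb1 by -0.44, and Sox6 was higher by 0.44. With library size alone as scaling, which moved the median of all genes by -0.26, 6 of the 14 transcription factors were lower and 0 higher. Erfe was higher by 1.83 and Tfrc by 0.83, while Slc25a37 was lower, at -0.86 on the log2 scale.

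The genes most like the 8 in their spread were found without using group differences. Log2 CPM was centred on each group's mean, and the Pearson r with the mean of the 8 was taken over the 15 libraries for 12532 genes. Hemgn, an erythroid nuclear protein, had r = 0.983, and Epb42, the protein 4.2 of the red cell membrane, had 0.974. Also among the most alike were Tent5c at 0.964, Trim10 at 0.963, Apol11b at 0.961, Rhag at 0.960, Wdfy4 at 0.956 and Add2 at 0.955. The median over all genes was -0.02 and the 95th percentile 0.637. The libraries share their depth and composition, so these values describe a pattern and carry no test.

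Within the 8, each gene was set against the mean of the other 7 in the same way. The r was 0.989 for Hbb-bs, 0.979 for Hbb-bt, 0.978 for Alas2, 0.964 for Slc4a1, 0.958 for Hba-a1, 0.937 for Klf1 and 0.904 for Car1. Hba-a2 stood apart at 0.626.

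Markers of several other marrow and blood cells also rose in CIA, and their part in the result was not tested. Of 11 granulocyte precursor markers, 11 rose in CIA, with a median log2 fold change of 3.64. Ms4a3, a marker of granulocyte and monocyte progenitors, rose by 3.64 ± 0.72 (edgeR adjusted p 0.00143) and Ngp, a granule protein of maturing neutrophils, by 3.62 ± 0.80 (0.00269). The summed level of this list was 40.2 to 515 CPM in healthy libraries, lowest in healthy 4 and highest in healthy 3. It was 397 to 4639 CPM in CIA, lowest in CIA 3 and highest in CIA 4, and 307 to 1071 CPM in CIA+F20. These are the same extreme libraries as for the erythroid genes, and all 11 passed with CIA 4 left out. Centred on the group means, r with the mean of the 8 erythroid genes ran from 0.818 to 0.945 over these 11 markers.

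Of 15 tested platelet and megakaryocyte markers, 14 rose, with a median of 2.74. Itgb3, the integrin beta 3 chain, rose by 2.80 ± 0.45 (edgeR adjusted p 0.000494) and Gp5, the platelet glycoprotein V, by 3.05 ± 0.64 (0.00198). Their summed level was 38.6 to 115 CPM in healthy, 104 to 694 in CIA and 81.1 to 250.1 in CIA+F20. Gp1bb was under the filter on low counts and had no read in any healthy or CIA+F20 library. In CIA it had reads in CIA 2, while 1 of the 16 listed genes was at 0 in each of CIA 1, 3, 4 and 5.

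Of 11 tested B cell precursor markers, 8 rose, with a median of 2.28. Igll1 and Dntt, which B cell precursors make in the marrow, rose by 3.60 ± 0.72 (edgeR adjusted p 0.00153) and 3.17 ± 0.67 (edgeR adjusted p 0.00201). The list summed to 17.4 to 37.2 CPM in healthy libraries, 29.1 to 100.7 in CIA and 26.7 to 47.3 in CIA+F20. Of 10 stem and progenitor markers 2 rose, Flt3 by 2.79 ± 0.42 (edgeR adjusted p 0.000349) and Kit by 1.90 ± 0.35 (0.000919). That is a smaller share than the 26.0% of all tested genes that rose, and the list's median was 0.12 beside 0.07.

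Markers of mature myeloid cells rose as well. All 11 tested mature neutrophil markers and all 10 macrophage markers rose in CIA, with medians of 3.63 and 1.98. In CIA+F20 against CIA, where 15.5% of all tested genes were lower, 4 of the 11 neutrophil markers were lower, with a median of -1.48. That count was 7 with library size alone or without healthy 3, and 2 without CIA 4. Of the macrophage markers 8 of 10 were lower, with a median of -1.18. None of the 11 granulocyte precursor markers passed in edgeR (1 at an unadjusted p under 0.05), with a median of -1.41, and 1 was lower with library size alone or without healthy 3. Of the platelet markers 1 of 15 was lower, with a median of -0.96, and none without CIA 4. Differences between these lists were not tested. Of 12 skeletal muscle markers, 8 fell in CIA and none rose, with a median of -0.64 (3 fell with library size alone as scaling). Their sum was 108716 to 131433 CPM in healthy, 52685 to 113668 in CIA and 100730 to 127258 in CIA+F20. CIA 4, the library with the most erythroid reads, had the lowest muscle sum. CIA 3, with the fewest in CIA, had the highest muscle sum in CIA. Other libraries did not follow this order. CIA 5 had a muscle sum of 111340 CPM, near that of CIA 3, at an erythroid sum of 1130 CPM against 236. Healthy 3 and healthy 4 had muscle sums of 124193 and 121324 CPM at erythroid sums of 941 and 74.3. The part of muscle RNA in the erythroid result was not tested.

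**Figure D5:**
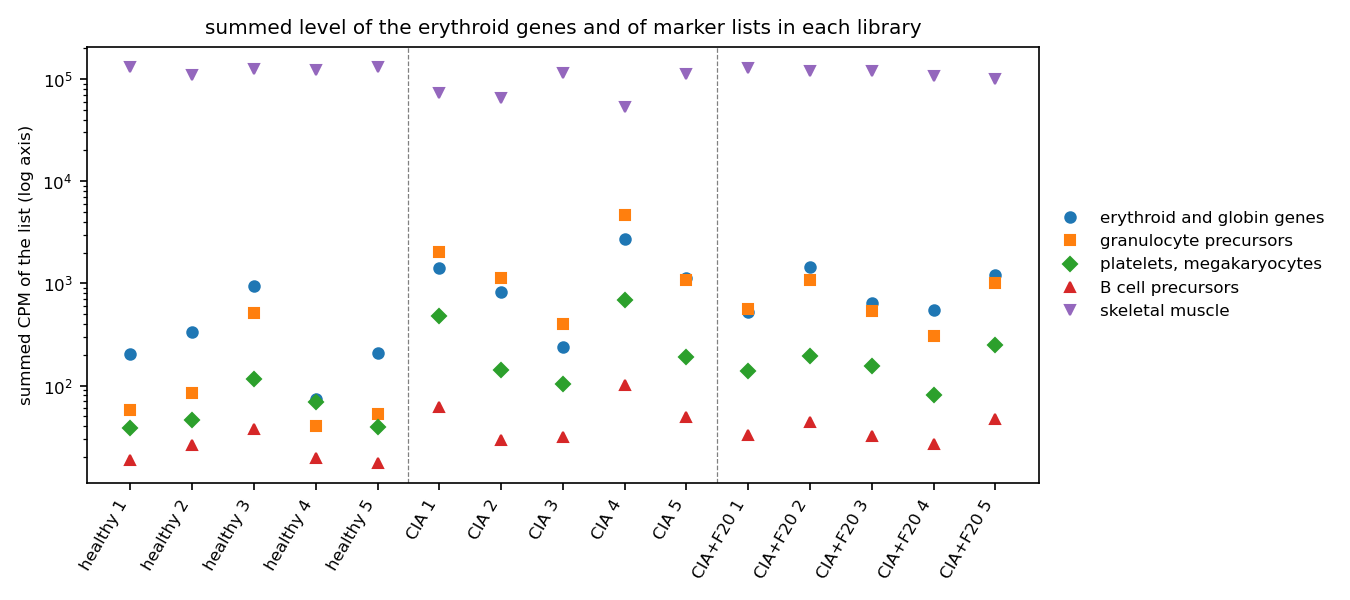
Summed CPM (log axis) of the 8 erythroid and globin genes and of 4 marker lists in each of the 15 libraries; each point is a library, and dashed lines divide the groups. The erythroid sum runs from 74.3 in healthy 4 to 2742 in CIA 4, and the granulocyte precursor sum is lowest and highest in the same libraries, while the muscle sum is lowest in CIA 4.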

How the data were processed

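Per the submitters' processing notes, reads were handled with fastp 0.23.2, HISAT2 2.2.1 and featureCounts 2.0.3 on GRCm39. Not given in the sources used here were the release of the gene models, whether counting used strand, and how multiply mapped reads were handled. What the authors deposited is 1 table of unnormalized counts for 26688 genes, of which 906 had no read. Libraries were grouped by title.

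Counts were tested in R 4.3.3 with edgeR 4.0.16: TMM scaling (factors 0.883 to 1.24), filterByExpr with a minimum count of 10, all 3 groups in 1 fit, quasi-likelihood F test, Benjamini-Hochberg adjustment over the 15770 tested genes and a threshold of 0.05. Each SE is the log2 fold change divided by the root of F. Common dispersion corresponded to a coefficient of variation of 27.8% between libraries. CPM used the TMM-scaled sizes, with a prior count of 2 for log2 CPM. DESeq2 1.42.0 was an alternative. The procedure was tested on simulated data.

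The genes, the 22 lists (254 entries) and the tests were chosen with earlier results of these data known. The naming rule took all 9 genes, up to 4 genes per list with the lowest p in CIA versus healthy, and the 10 genes most like the 8 in centred log2 CPM. Other genes were named after their values were seen, because a count of 5 or fewer holds them or because they were at 0. Some genes that the rule takes are not reported here.

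No pair of libraries of the same group agreed within sampling noise (chi-square per gene at least 22.0). Pairs across groups were not examined in this way. Transcript lengths and coding stretches came from GENCODE M39, promoters from RefSeq.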

Additional observations from a re-analysis of the deposited data

Results flagged for a closer look

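In groups of 5 libraries, 54 sets of values were examined for a library far from the other 4, and 8 stood out. The cut-off is passed by about 1 in 20 sets of independent, normally distributed values. Here the genes moved together and several sets share reads, so the 8 cannot be set against that rate. Healthy 3 stood above the other healthy libraries for 5 genes. It had 333 CPM of Hbb-bs, where the others had 30.6 to 117. It had 22.8 CPM of Alas2, against 2.73 to 6.37, and 37.9 CPM of Slc4a1, against 1.57 to 7.32. It had 8.95 CPM of Car1, against 1.74 to 2.48, and 4.42 CPM of Klf1, against 0.349 to 0.987. The same library had the highest healthy sums of granulocyte precursor, mature neutrophil, platelet and B cell precursor markers.

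Of the ratios within a library, alpha reads per beta read was 1.44 in CIA+F20 3, against 1.02 to 1.11 in the other CIA+F20 libraries; Hba-a2 was 0.0400% of its alpha reads. Hbb-bt was 13.4% of beta reads in CIA 3, against 16.8 to 18.1% in the other CIA libraries. Car1 had 25.7 reads per 1000 globin reads in healthy 4, from 30 reads, against 7.82 to 12.2 in the other healthy libraries.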

How the results depend on the processing

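Genes called higher in CIA than in healthy numbered 7 of the 8 with DESeq2, with DESeq2 size factors, with library size alone and with scaling that left out these genes, 6 without a filter, and 6 of 6 with each globin pair summed. They numbered 3 with only those groups in the fit and 0 to 7 over the libraries left out in turn (0 without CIA 4). The cause was not tested. CIA+F20 versus CIA and CIA+F20 versus healthy called 0 of the 8 under every alternative run. In CIA+F20 versus CIA without CIA 4, Hbb-bs turned to 0.012 (edgeR adjusted p 0.990) and Hbb-bt to 0.032 (0.977); over the libraries left out, their log2 fold changes ran from -0.77 to 0.012 and from -0.78 to 0.032.

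Over all genes, CIA+F20 versus CIA called 4669, 7041 with library size alone (1039 higher, 6002 lower, against 2219 and 2450), 2674 with only those groups, and 2883 to 6215 without single libraries. CIA versus healthy called 6061 to 8051 without single libraries, and 7370 higher and 1353 lower with library size alone. CIA+F20 versus healthy called 116 with DESeq2 and 0 to 107 without single libraries (107 without healthy 3). Library size alone moved the median log2 fold change by 0.31 in CIA versus healthy and by -0.26 in CIA+F20 versus CIA.

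With the replicate number as a block, 0 of the 8 were called in CIA versus healthy. Same-numbered libraries had correlations from -0.395 to 0.243, with 3 of 15 pairs above 0.1. Of the 15 libraries, 2 correlated best with their own number. These values show no general likeness by number, but they cannot exclude that libraries of the same number share something. List counts under other scalings and without CIA 4, healthy 3 or healthy 4 were chosen after seeing the data.

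Depth limits Klf1 and Hba-a2 most: healthy 4 had 6 and 0 reads of them, and 5 libraries per group left intervals of more than 2 log2 units.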

Other observations

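Genes that clear hemoglobin and heme rose in CIA: 8 of 12 tested rose and none fell, beside 26.0% and 19.5% of all tested genes. Their median log2 fold change was 0.92 beside 0.07 over all tested genes. Hmox1, the inducible heme oxygenase, rose by 3.68 ± 0.68 (edgeR adjusted p 0.00101), from 8.23 ± 1.65 CPM in healthy to 105 ± 110 in CIA (SD, n = 5). Ftl1, a ferritin light chain, rose by 1.35 ± 0.17 (0.000183), Vcam1, an adhesion molecule that macrophages of the marrow and spleen also carry, by 2.08 ± 0.30 (edgeR adjusted p 0.000273) and Hp, the hemoglobin scavenger haptoglobin, by 2.64 ± 0.64 (0.0045). Without CIA 4, 5 rose and none fell.

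Of these 12 genes, 5 were lower under F20 than in CIA, where 15.5% of all tested genes were lower. Hmox1 was at -2.90 on the log2 scale (edgeR adjusted p 0.00761), Hp at -1.83 (0.0389), Vcam1 at -1.29 (0.00714), Ftl1 at -1.14 (0.00213) and Blvra at -0.36. Macrophage markers moved with them, all 10 higher in CIA and 8 of 10 lower under F20, and their part in the result was not tested. Whether the F20 difference of these genes itself differs from that of the erythroid genes was not tested.

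Of 10 joint tissue markers, 2 rose in CIA, and their sum was 92.8 to 937 CPM in healthy libraries, lowest in healthy 4. Of 9 osteoclast markers 8 rose and 8 were lower under F20 than in CIA, and of 10 osteoblast and bone matrix markers 4 rose and 2 were lower under F20 (7 and 6 with library size alone). Of 16 cell cycle genes 15 rose in CIA and 2 were lower under F20, a count that was 14 with library size alone as scaling, 3 without healthy 4 and 0 without CIA 4. Of 9 endothelial markers 1 rose and 3 fell in CIA. Of all tested genes, 26.0% rose and 19.5% fell in CIA, and 15.5% were lower under F20 than in CIA. With library size alone, 7370 of the 15770 rose in CIA and 6002 were lower under F20. The rises among joint tissue and endothelial markers were not above the share of all tested genes. Of 4 tested T cell markers 1 rose, and without healthy 4 all 4 did. Of the other oxygen-binding globins, Cygb rose by 0.78 (edgeR adjusted p 0.0122) and Mb fell. In CIA+F20 versus healthy, edgeR called 0 genes in each list with all 15 libraries, and also without healthy 4 or without CIA 4. Healthy 3 had the highest healthy sum of granulocyte precursor markers, 515 CPM against 40.2 to 84.5 in the others. The list counts without healthy 3 were chosen after the data were seen. Leaving out the highest healthy library of a list raises that list's estimates by construction, so these counts are a description only. With healthy 3 left out, the comparison called 107 of all tested genes. Without healthy 3, all 11 granulocyte precursor markers were higher in CIA+F20, with a median log2 fold change of 3.64. So were 7 of 11 mature neutrophil, 2 of 11 B cell precursor, 1 of 15 platelet, 1 of 10 macrophage and 1 of 9 osteoclast markers, and 0 genes of the other lists.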
